A study of Mus musculus with 6 samples.

Results

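Colonic mucosa of Mthfd1S+/- and wild-type mice was compared here for the 9 enzymes that make, balance and destroy the deoxynucleotides used for DNA synthesis: Tyms, Tk1, Dtymk, Dut, Dctd, Rrm1, Rrm2, Rrm2b and Samhd1. They were chosen by pathway role and found by gene symbol, taking for each gene the row with the highest mean level. All 9 were measured, among 22180 gene symbols in all. Affymetrix Mouse Gene 2.0 ST arrays carried 1 row, called a transcript cluster, per gene or gene part, and levels are log2 values.

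The samples were 4 Mthfd1S+/+ (wild type, WT) and 2 Mthfd1S+/- male BALB/c mice, with 1 array each. Every mouse of either genotype had been given the carcinogen azoxymethane (AOM) by intraperitoneal injection at 6 mg/kg. Dextran sulfate sodium (DSS), an agent that damages the gut lining, followed at 3% for 4 days in each of 2 cycles, 1 and 4 weeks later. Animals were killed 13 weeks after AOM, and the tissue was mucosa of normal appearance taken next to a tumour. The labels give an age of 7 months, whereas the protocol gives 3 months at the AOM injection. The mice carried at least 10 generations of backcrossing to BALB/cAnN, and Mthfd1S+/- animals are deficient in the synthetase activity of MTHFD1. Whether this allele alters the amount of Mthfd1 transcript is not given. No group without AOM and DSS is among the arrays, so every level below is one after this treatment.

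Array medians over tested clusters were 5.949 to 5.993, and arrays correlated at 0.991 to 0.995 across clusters, which are not independent replicates. All 15 colonic epithelium markers were measured, at mean levels of 8.83 to 13.4, against a median of 5.97 over all tested clusters. The 12 smooth muscle markers had mean levels of 5.77 to 12.6, so the tissue held muscle RNA as well. The targeted gene Mthfd1 read 7.64, 7.63, 7.496 and 7.75 in WT against 7.96 and 7.63 in Mthfd1S+/-, so the groups overlapped. Its log2 difference of 0.165 (95% interval -0.10 to 0.43, limma adjusted p 0.890) does not check the genotypes. Smooth muscle markers were higher in Mthfd1S+/- mucosa in 12 of 12, where 54.0% of all tested clusters were higher. At an unadjusted p under 0.05, 2 of 12 were higher, against 3.36% of all tested clusters. Their mean, with each gene centred over the 6 mice, was -0.18, -0.27, -0.038 and 0.090 in WT animals 1 to 4. It was -0.036 in the first Mthfd1S+/- mouse and 0.43 in the second. Median log2 differences of the other marker lists were 0.11 for fibroblasts (9 of 10 higher), 0.30 for enteric neurons and glia (8 of 9 higher), -0.89 for adipocytes (7 of 7 lower) and -0.14 for B and plasma cells (7 of 9 lower). At an unadjusted p under 0.05, 3 of the 10 fibroblast and 3 of the 9 neuron and glia markers were higher, and 2 of the 7 adipocyte and 2 of the 9 B and plasma cell markers were lower, where 2.44% of all tested clusters were lower. The T and NK cell, macrophage and dendritic cell, and colonic epithelium lists had 0 at that p, and 0 markers of any list had an adjusted p under 0.05 in limma. Median differences were 0.015 for T and NK cells and 0.044 for macrophages and dendritic cells. For colonic epithelium the median was -0.052, with 3 markers higher and 12 lower in Mthfd1S+/-. Apart from the smooth muscle and epithelial covariates, the part of these cell types in the enzymes' levels was not tested. In such bulk tissue, fewer cells of a type and less RNA per cell cannot be told apart.

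Thymidylate synthase joins a one-carbon unit carried by folate to dUMP, which makes dTMP. Folate also donates carbons to the purine ring, so the bases of dATP and dGTP depend on it too. MTHFD1 interconverts the one-carbon forms of folate in the cytosol, and its synthetase activity loads formate onto folate. Ribonucleotide reductase makes the other deoxynucleotides by reducing ribonucleotides, and in dividing tissue such as the colonic crypt the pool is built mainly in S phase. When thymidylate runs short, dUTP can replace dTTP in DNA, and the supply enzymes are studied in folate deficiency for this reason.

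Ribonucleotide reductase consists of a catalytic subunit, Rrm1, and a small subunit that is either Rrm2, made in dividing cells, or Rrm2b, a p53 target that is present in resting cells. Promoter sequences are shown for Rrm1 and Rrm2, whose protein products form the S phase enzyme and whose annotated starts match the ends of their genes. They are the 150 bases before the annotated start on the plus strand, from RefSeq with build GRCm38.p6, at chr7:102441545-102441694 for Rrm1 and chr12:24708104-24708253 for Rrm2. Capitals mark the motifs CCAAT and GGGCGG.
Rrm1: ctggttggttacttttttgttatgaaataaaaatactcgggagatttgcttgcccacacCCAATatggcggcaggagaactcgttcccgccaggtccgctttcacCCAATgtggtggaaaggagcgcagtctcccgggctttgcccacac
Rrm2: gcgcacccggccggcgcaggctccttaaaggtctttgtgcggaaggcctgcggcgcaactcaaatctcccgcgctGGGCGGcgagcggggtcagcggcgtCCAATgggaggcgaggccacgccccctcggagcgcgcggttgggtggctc

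In the Rrm1 window CCAAT began 91 and 45 bases before the start. In the Rrm2 window it began 50 bases before the start, with GGGCGG, the GC box, at 75. Promoters of 8 of the 9 enzymes were in the table. Over 250 bases before each start and both strands, CCAAT was found in 4 of these 8 (Dtymk, Rrm1, Rrm2 and Dctd) and in 37.5% of all 27025 genes. GGGCGG was found in 6 of 8 (Tyms, Tk1, Dut, Rrm2, Dctd and Samhd1) and in 35.4% of all genes. The E2F forms TTTGGCGC, TTTCCCGC, TTTGCCGC and TTTCGCGC were in 0 of 8 and in 2.16% of genes. Only these exact forms were searched, so other E2F sites could have been missed. The interferon-stimulated response element was likewise in 0 of 8 and in 3.46% of genes. These matches describe letters in a window and were not tested against the levels.

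None of the 9 enzymes differed between Mthfd1S+/- and WT mucosa beyond the spread between mice. With limma over 23521 clusters, 0 of 9 had an adjusted p under 0.05, where 0.0% of all tested clusters did, and the adjusted p of the 9 ran from 0.891 to 0.996. At an unadjusted p under 0.05 there were likewise 0 of 9, against 5.79% of all tested clusters (3.36% higher and 2.44% lower in Mthfd1S+/-). Of the 9 enzymes, 4 were higher and 5 lower in Mthfd1S+/-, with a median log2 difference of -0.012, where the median over all clusters was 0.012. All 9 intervals of 95% included 0 and lay within 1.5-fold in both directions, from 0.674-fold for the lowest bound to 1.41-fold for the highest. Intervals lay within 1.5-fold in both directions for 91.3% of all tested clusters, whether or not they included 0. This precision is therefore not particular to these enzymes. With only 2 Mthfd1S+/- mice the exact permutation test over the 15 splits of the arrays cannot go below 0.0667, and the lowest value among the 9 was 0.2.

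**Figure D1:**
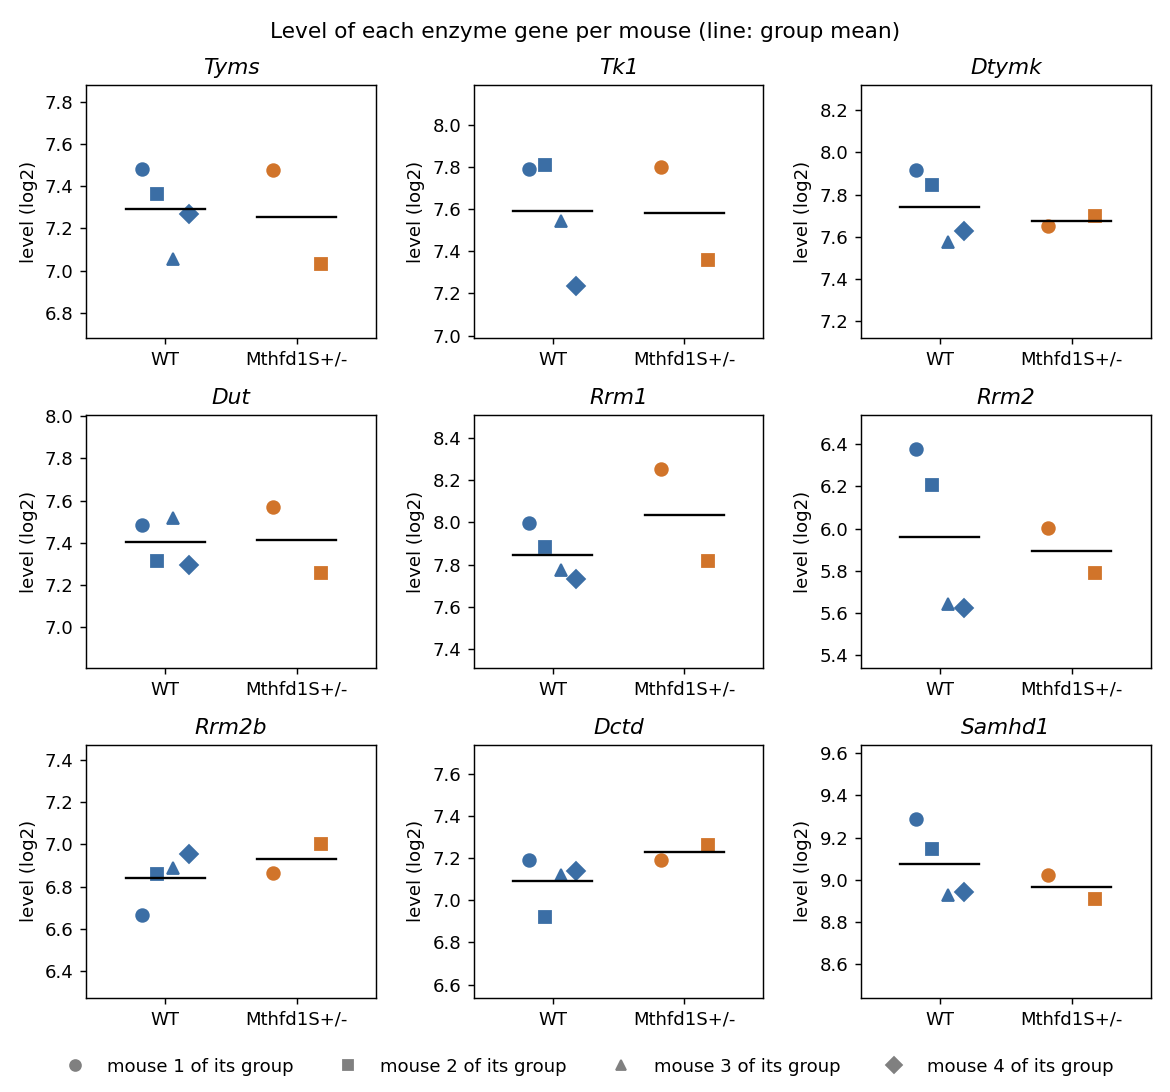
Level of each enzyme gene (log2, vertical axis) in each mouse, with WT mice in blue, Mthfd1S+/- mice in orange, a symbol per mouse number and a line at each group mean; every panel spans the same log2 range. The groups overlap in every panel but Dctd, and the widest spread is that of Rrm2 in WT mice, from 5.62 to 6.38.

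The thymidylate branch begins with Tyms, the synthase itself, which read 7.48, 7.36, 7.06 and 7.27 in WT, and 7.48 and 7.03 in Mthfd1S+/-, in the order of the mouse numbers as for all genes here. The first Mthfd1S+/- mouse thus stood at the top of the WT range and the second below it. The log2 difference was -0.037 ± 0.15 (SE; 95% interval -0.39 to 0.31). The WT level was 7.29 ± 0.18 (SD, n = 4), and the Mthfd1S+/- level 7.26 ± 0.31 (SD, n = 2). Tk1, the cytosolic kinase that salvages thymidine, had a like split, at 7.79, 7.81, 7.54 and 7.23 in WT and 7.80 and 7.36 in Mthfd1S+/-. Both Mthfd1S+/- values lay inside the WT range, and the difference was -0.012 ± 0.18 (SE; 95% interval -0.43 to 0.41).

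Dtymk phosphorylates dTMP from either route to dTDP. It read 7.92, 7.85, 7.58 and 7.63 in WT mice and 7.65 and 7.70 in Mthfd1S+/- mice, which sat close together inside the WT range. The log2 difference was -0.065 ± 0.11 (SE; 95% interval -0.33 to 0.20). The SD of the Mthfd1S+/- mice was 0.034 for Dtymk, against 0.31 for both Tyms and Tk1, on the log2 scale.

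Dut hydrolyses dUTP, which keeps uracil out of DNA and supplies dUMP to thymidylate synthase. Its levels were 7.48, 7.32, 7.52 and 7.30 in WT and 7.57 and 7.26 in Mthfd1S+/-, 1 mouse above and 1 below all WT mice. The difference of 0.011 ± 0.12 (SE; 95% interval -0.26 to 0.28) averaged these opposite deviations. Dctd deaminates dCMP to dUMP, the other source of thymidylate precursor, and was the single gene whose groups did not overlap. It read 7.19, 6.92, 7.12 and 7.14 in WT and 7.19 and 7.26 in Mthfd1S+/-. The lower Mthfd1S+/- mouse (7.192) and the highest WT mouse (7.189) were almost level. Groups without overlap made up 1 of 9 enzymes (11.1%) and 14.0% of all tested clusters (7.96% higher and 6.04% lower in Mthfd1S+/-). The log2 difference of Dctd was 0.14 ± 0.099 (SE; 95% interval -0.090 to 0.36), with a limma adjusted p of 0.891 and an exact permutation p of 0.2.

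Among the reductase subunits, Rrm1 had the largest difference of the 9 enzymes. It read 7.998, 7.88, 7.77 and 7.73 in WT and 8.25 and 7.82 in Mthfd1S+/-. Only the first Mthfd1S+/- mouse exceeded the WT range, and the second lay within it. The log2 difference was 0.19 ± 0.13 (SE; 95% interval -0.12 to 0.498), or 1.14-fold, with a limma adjusted p of 0.891 (exact permutation p 0.333). It was 0.41 if the second Mthfd1S+/- mouse was left out, and -0.029 if the first was. Of all tested clusters 16.4% had a larger absolute difference.

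Rrm2 was the most variable of the 9. Levels were 6.38, 6.21, 5.64 and 5.62 in WT and 6.00 and 5.79 in Mthfd1S+/-, so both Mthfd1S+/- mice fell in the gap between a higher and a lower pair of WT mice. The WT SD of 0.39 was exceeded by 1.55% of tested clusters, whose median was 0.114. Its genotype difference of -0.066 ± 0.22 (SE; 95% interval -0.57 to 0.44) stood beside a WT range of 0.753. Rrm2b read 6.67, 6.86, 6.89 and 6.95 in WT and 6.86 and 7.001 in Mthfd1S+/-. The lowest value was in the WT mouse with the highest Rrm2, and the difference was 0.089 ± 0.10 (SE; 95% interval -0.15 to 0.33).

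Samhd1 removes deoxynucleotides by splitting off their triphosphate, and it is known as an interferon-induced gene that restricts viruses in resting immune cells. It read 9.29, 9.15, 8.93 and 8.94 in WT and 9.02 and 8.91 in Mthfd1S+/-. The second Mthfd1S+/- mouse lay just below the WT range and the first inside it. The log2 difference was -0.11 ± 0.12 (SE; 95% interval -0.38 to 0.17; limma adjusted p 0.936).

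**Figure D2:**
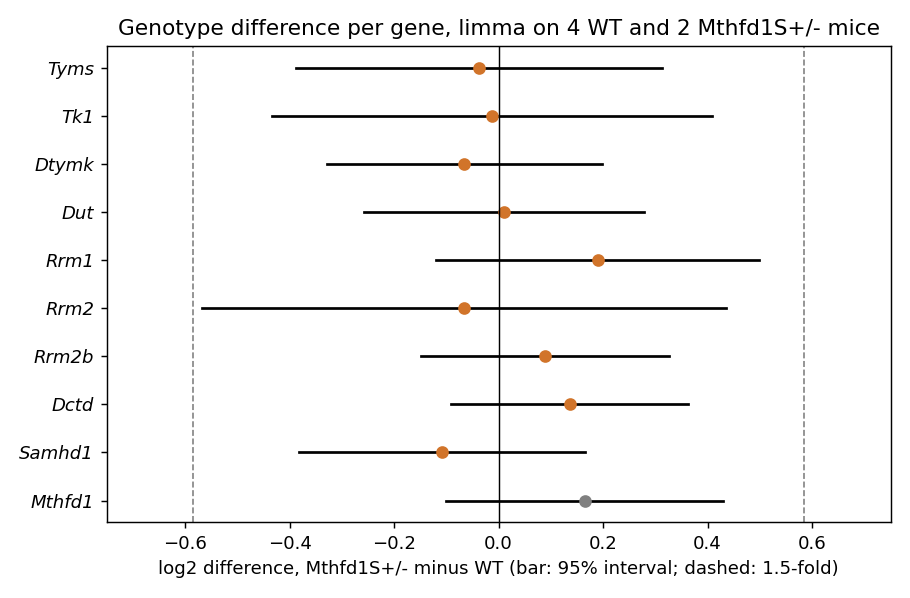
Log2 difference of each gene, Mthfd1S+/- minus WT (point), with its 95% interval from limma (bar), for the 9 enzymes and for the targeted gene Mthfd1 in grey; dashed lines mark 1.5-fold. Every bar crosses 0, and the widest, that of Rrm2, runs from -0.57 to 0.44.

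Averaged over the 9 enzymes, with each gene centred over the 6 mice, WT mice 1 to 4 stood at 0.14, 0.051, -0.095 and -0.12, and the Mthfd1S+/- mice at 0.11 and -0.085. The first Mthfd1S+/- mouse was thus above 0 and the second below it, both inside the WT range.

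By root mean square (RMS) difference of centred log2 levels over the 6 mice, the closest pair of enzymes was Dtymk and Samhd1, at 0.056. Rrm2 and Rrm2b were the farthest apart, at 0.372. Samhd1 was also the nearest of the other enzymes to Tyms (0.117), Tk1 (0.157) and Rrm2 (0.159), while Rrm1 and Dut were nearest to each other (0.132), as were Rrm2b and Dctd (0.143). Over all tested clusters, the nearest gene to Rrm1 was Dna2, a nuclease and helicase (0.028), and to Dut it was Wdhd1, a DNA-binding replication protein (0.029). Cenpe, a kinetochore motor, was nearest to Rrm2 (0.059), Timm23, a mitochondrial import channel, to Dtymk (0.018) and Rps12, a ribosomal protein, to Samhd1 (0.022). For Tyms it was the keratin Krt90 (0.040), for Tk1 Kng2, a kininogen (0.028), for Rrm2b Pbx4 (0.015) and for Dctd Rtn4rl2 (0.016). Flat profiles have many near neighbours: 3137 other clusters lay within 0.1 of Rrm2b but only 17 within 0.1 of Rrm2. For Dut there were 1755 and for Rrm1 313, so their nearest genes are the first of many.

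A list of 27 measured S phase and proliferation genes, holding none of the 9 enzymes, gave each mouse a mean of centred log2 levels. It was 0.13, -0.014, -0.010 and -0.11 in WT animals 1 to 4, then 0.15 and -0.15 in Mthfd1S+/-. The list therefore had its highest and its lowest mouse within the Mthfd1S+/- group. WT mouse 1 and Mthfd1S+/- mouse 1, which had the highest means, are also the mice whose identifiers begin with A; those of the others begin with B, and the labels do not explain the letter. Over the 6 mice, 11 relations between an enzyme and a list mean were computed, and 0 passed after Benjamini-Hochberg adjustment of exact permutation p-values over 720 pairings, where the smallest adjusted p was 0.138.

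Against the S phase mean Dut had Pearson r 0.86 (exact permutation p 0.0375) and Spearman rho 0.94 (exact permutation p 0.0167). Rrm1 had r 0.84 (exact permutation p 0.0222) and rho 0.71 (0.136), Tk1 r 0.84 (exact permutation p 0.0653) and rho 0.60 (0.242), and Tyms r 0.78 (exact permutation p 0.0833) and rho 0.77 (0.103). Rrm2b went the other way, with r -0.81 (exact permutation p 0.0361) and rho -0.71 (0.136). Over these 6 mice r was positive for the first 4 genes and negative for Rrm2b, and none passed after adjustment. Adjusted exact permutation p-values for these r were 0.138 for Dut, Rrm1 and Rrm2b, 0.180 for Tk1 and 0.183 for Tyms. The 2 mice farthest from the median were WT mouse 1 and Mthfd1S+/- mouse 1. Without them r was 0.72 for Dut, 0.80 for Tk1 and -0.98 for Rrm2b, but 0.33 for Rrm1 and 0.32 for Tyms. Those mice had the highest list means, so leaving them out also narrows the range of the list mean. A lower r there cannot show whether a relation rests on those mice. Centred within genotype, r was 0.86 for Dut, 0.97 for Rrm1, 0.84 for Tk1, 0.79 for Tyms and -0.88 for Rrm2b. Unadjusted exact permutation p over 48 pairings within genotype was 0.229, 0.0417, 0.167, 0.25 and 0.0417 in the same order.

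**Figure D3:**
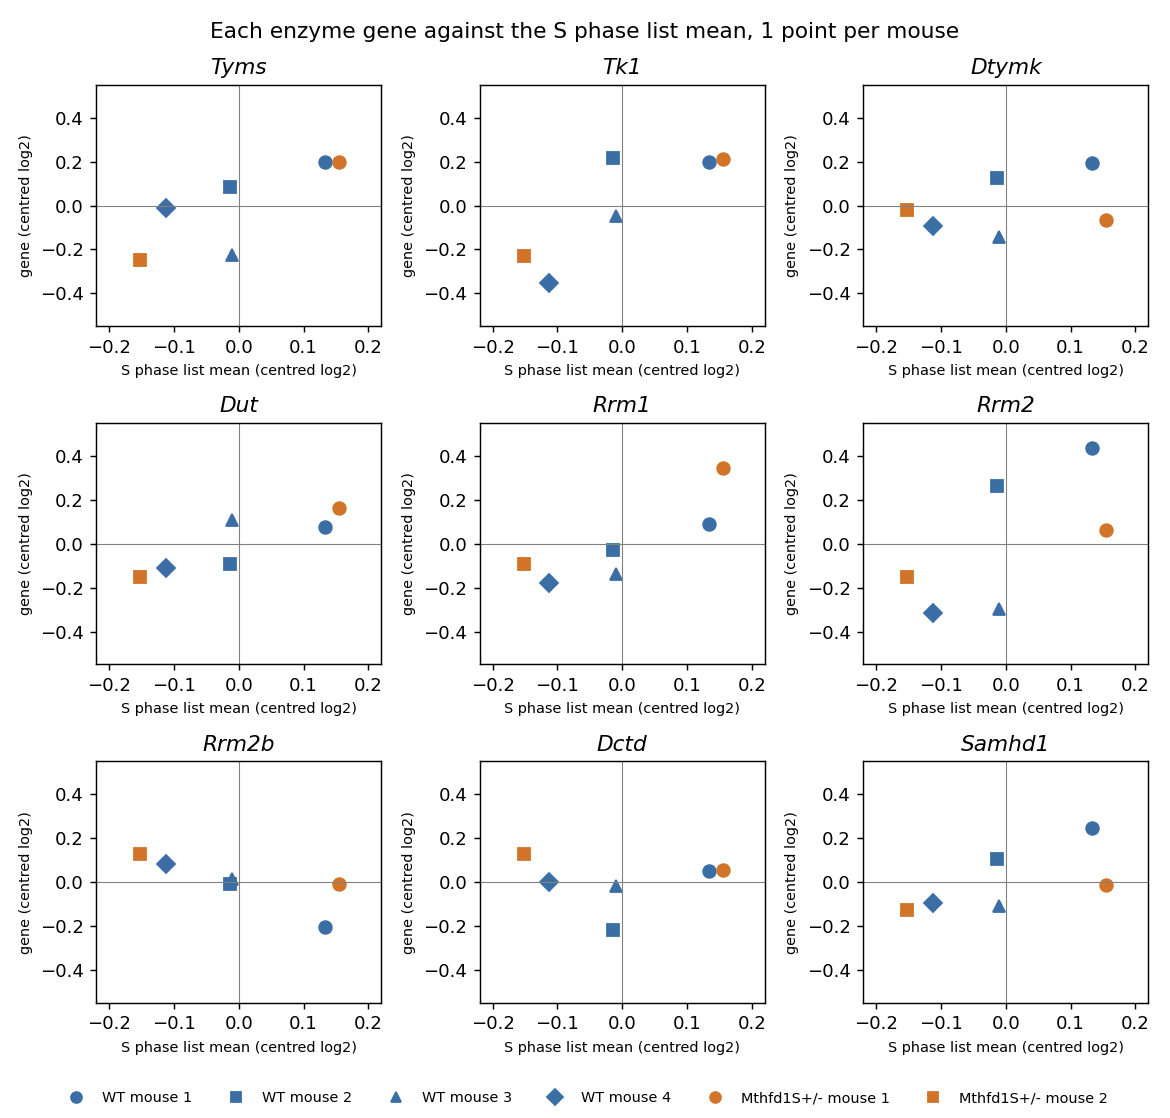
Each enzyme gene (vertical axis, log2 level centred over the 6 mice) against the mean of the S phase list (horizontal axis, centred log2), with 1 point per mouse in the colours and symbols of the legend. Dut, Rrm1, Tk1 and Tyms rise from left to right (r 0.78 to 0.86), Rrm2b falls (r -0.81), and Dctd shows almost no slope (r -0.0067).

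Rrm2 had r 0.65 (exact permutation p 0.176) and rho 0.49 (0.356), and Samhd1 r 0.65 (exact permutation p 0.169) and rho 0.60 (0.242). Dtymk had r 0.35 (exact permutation p 0.479) and rho 0.086 (0.919), and Dctd r -0.0067 (exact permutation p 0.993) and rho -0.029 (exact permutation p 1). Without the same 2 mice, r was 0.38 for Rrm2, 0.58 for Samhd1, 0.15 for Dtymk and -0.78 for Dctd. Rrm2b is also a p53 target, yet against the mean of 17 measured p53 targets it had r 0.033 (exact permutation p 0.935) and rho -0.14 (exact permutation p 0.803), and r 0.78 without WT mouse 3 and Mthfd1S+/- mouse 2. The p53 target mean itself ranged only from -0.013 to 0.013 over the 6 mice.

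Samhd1 against the mean of 22 measured interferon-stimulated genes had r 0.65 (exact permutation p 0.164) and rho 0.66 (exact permutation p 0.175). Centred within genotype, its r was 0.58 (exact permutation p within genotype 0.4375). Without WT mice 1 and 3, and not centred within genotype, r was 0.99. That list's mean was 0.40, 0.074, 0.28 and -0.26 in WT animals 1 to 4, then -0.18 and -0.31 in Mthfd1S+/-. WT mouse 4 thus lay between the 2 Mthfd1S+/- mice, and the groups overlapped. Of the list's genes, which are not independent replicates, 22 of 22 were lower in Mthfd1S+/- mucosa, where 54.0% of all tested clusters were higher. Their median log2 difference was -0.32. At an unadjusted p under 0.05 there were 8 lower and 0 higher, where 2.44% of all tested clusters were lower at that p, and 0 had an adjusted p under 0.05 in limma. The nucleic acid sensor Zbp1 had -0.53 ± 0.14 (SE), from 8.32 in WT to 7.79 in Mthfd1S+/-, and Xaf1 -0.61 ± 0.18. Oas3, an antiviral synthetase, had -0.51 ± 0.17 and the ubiquitin-like Isg15 -0.60 ± 0.22. The groups overlapped for Isg15 but not for Zbp1, Xaf1 and Oas3. Samhd1 itself, at -0.11, lay nearer to 0 than the median of that list. The part of interferon signalling in the Samhd1 level was not tested.

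**Figure D4:**
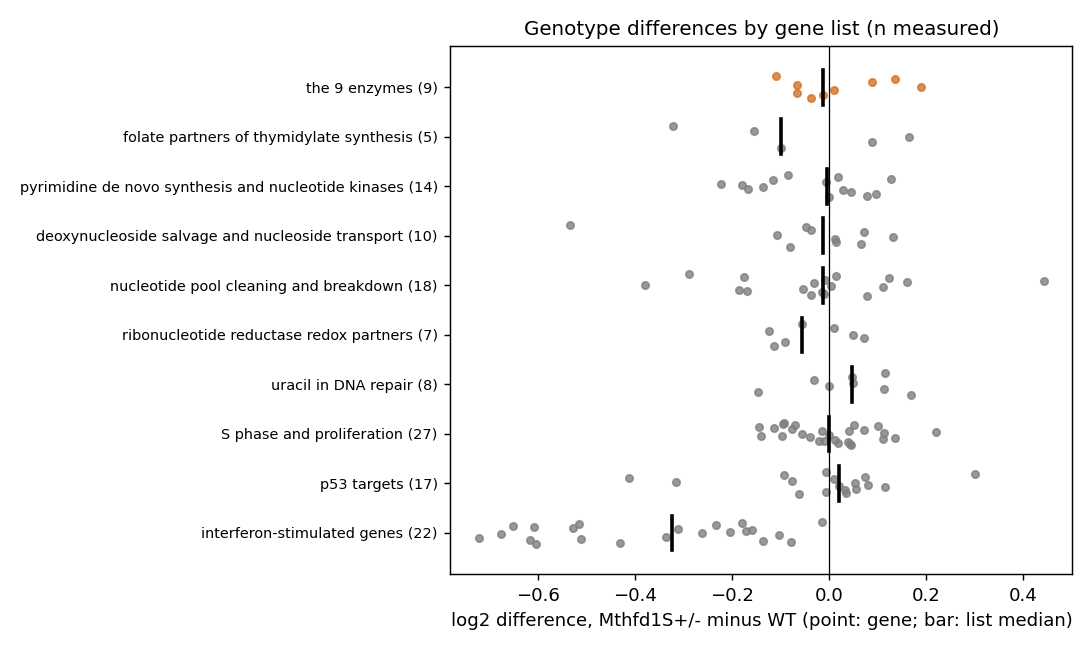
Log2 differences, Mthfd1S+/- minus WT (horizontal axis), of the genes of each list (points, with the number measured in brackets) and the list median (bar). The median of the 9 enzymes is -0.012 and those of the other pathway lists lie between -0.099 and 0.049, except for interferon-stimulated genes at -0.32.

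Around the thymidylate cycle, 5 of 7 folate partners were measured, with 2 higher and 3 lower, a median log2 difference of -0.099 and 0 at an unadjusted p under 0.05. Shmt1 and Shmt2, which load the one-carbon unit onto folate in cytosol and mitochondria, had -0.099 ± 0.13 (SE) and 0.088 ± 0.12. The mitochondrial enzymes Mthfd2 and Mthfd1l, which turn that unit into formate, had -0.15 ± 0.099 and -0.32 ± 0.21. Mthfd1l read 7.14, 6.77, 7.25 and 7.29 in WT and 7.15 and 6.43 in Mthfd1S+/-, so only the second Mthfd1S+/- mouse was low, and without it the difference was 0.042.

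Pyrimidine synthesis and nucleotide kinases were even, with 7 of 14 measured genes higher and 7 lower, a median log2 difference of -0.0029 and 0 at an unadjusted p under 0.05. Cmpk1, which phosphorylates CMP, UMP and dCMP, read 9.35, 9.33, 9.335 and 9.38 in WT and 9.26 and 9.17 in Mthfd1S+/-, with no overlap and a difference of -0.13 ± 0.079 (SE). Uckl1, a uridine-cytidine kinase family member, had -0.17 ± 0.10. CTP synthase, Ctps, had -0.22 ± 0.14 and Cmpk2, which is also an interferon-stimulated gene, -0.18 ± 0.12. The limma adjusted p of these 4 ran from 0.869 to 0.888.

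Among salvage and nucleoside transport genes, Slc28a3 had the smallest p. Slc28a3, a sodium-coupled carrier that brings nucleosides into cells, read 5.86, 5.93, 5.60 and 5.76 in WT and 5.35 and 5.16 in Mthfd1S+/-. Both Mthfd1S+/- mice lay below all WT mice, with a log2 difference of -0.53 ± 0.11 (SE; 95% interval -0.79 to -0.27). Its limma adjusted p was 0.837, the smallest over all clusters. That value is shared with other genes, among them Nt5e at an unadjusted limma p of 0.0561. The exact permutation p was the lowest possible, 0.0667, as it also was for Cmpk1, Txn1, Itpa, Zbp1 and further genes not named here. The equilibrative carrier Slc29a1 had 0.13 ± 0.12, Slc29a2 of the same family -0.11 ± 0.093, and the deoxycytidine kinase Dck -0.079 ± 0.084. Of the 10 genes measured, 5 were higher and 5 lower, with a median of -0.012, and 1 had an unadjusted p under 0.05.

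On the breakdown side, 7 of 18 measured genes were higher and 11 lower, with a median log2 difference of -0.012 and 2 at an unadjusted p under 0.05. Dpyd, which starts the degradation of uracil and thymine, read 6.14, 6.55, 6.29 and 6.62 in WT and 6.72 and 6.98 in Mthfd1S+/-. Both Mthfd1S+/- mice were above all WT mice, at a difference of 0.44 ± 0.15 (SE; 95% interval 0.10 to 0.79; limma adjusted p 0.837). Xdh, which oxidises purine bases, had -0.29 ± 0.11 (95% interval -0.54 to -0.040) with the same adjusted p and groups that did not overlap. Nt5e, an ectonucleotidase on the cell surface, had -0.38 ± 0.17, and Itpa, which hydrolyses ITP, -0.17 ± 0.093.

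Genes of the thioredoxin and glutaredoxin systems, only some of which hand electrons to ribonucleotide reductase, had a median log2 difference of -0.054. Of these genes 3 of 7 were higher, 4 lower and 0 at an unadjusted p under 0.05. Thioredoxin, Txn1, read 10.86, 10.84, 10.82 and 10.82 in WT and 10.75 and 10.69 in Mthfd1S+/-, a difference of -0.11 ± 0.078 (SE) without overlap. Glutaredoxin, Glrx, had -0.12 ± 0.097, thioredoxin reductase, Txnrd1, -0.091 ± 0.11 and mitochondrial thioredoxin, Txn2, 0.073 ± 0.086. Repair genes that act on uracil in DNA had a median of 0.049 with 6 of 8 higher, 2 lower and 0 at an unadjusted p under 0.05. The uracil glycosylases Ung and Smug1 had 0.17 ± 0.10 and -0.145 ± 0.097. Parp1, a sensor of DNA breaks, had 0.12 ± 0.087, and the glycosylase Mbd4 0.11 ± 0.12.

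In the S phase list 14 of 27 genes were higher and 13 lower, with a median log2 difference of 0.00039 and 0 at an unadjusted p under 0.05. E2f1, a transcription factor of S phase entry, had 0.22 ± 0.12 (SE), and the licensing factor Cdt1 0.14 ± 0.10. The clamp loader subunit Rfc3 had 0.11 ± 0.099, and Gins2, part of the replicative helicase, -0.14 ± 0.13. Of the 17 p53 targets 10 were higher and 7 lower, with a median of 0.020. Plk2 (-0.41 ± 0.16) and the death receptor gene Tnfrsf10b (-0.31 ± 0.13) were at an unadjusted p under 0.05, each with a limma adjusted p of 0.837. Ddit4, an inhibitor of mTOR signalling, had 0.30 ± 0.20 and Phlda3 0.080 ± 0.092. In every one of these lists 0 genes had an adjusted p under 0.05 in limma.

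With the smooth muscle marker mean as a covariate, a fit chosen after the data were seen, Rrm1 had a log2 difference of 0.43 (95% interval 0.15 to 0.70) and Tk1 of 0.35 (95% interval 0.060 to 0.65). These were the 2 enzymes at an unadjusted p under 0.05 in that fit, with limma adjusted p of 0.958 and 0.991. Tyms had 0.21 and Rrm2 0.27 there, both positive where the fit without the covariate gave negative values. The covariate is highest in the second Mthfd1S+/- mouse, so tissue content and genotype are partly confounded in it.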

How the data were processed

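RNA from 6 mice was hybridised to 1 array each. Precision is limited by how few arrays there are. The deposited log2 values, 1 per transcript cluster and array, were made by the authors, per the submitters' processing notes, in Affymetrix Expression Console. A version, an algorithm and a genome build were not stated. That the scale is log2 was inferred from the range of values, 1.06 to 13.5. Detection calls were not used, so low values may be background. A change common to all genes would be removed by between-array normalization.

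Of 41345 clusters, 23521 had exactly 1 platform symbol and were tested; 1814 with several symbols and 16010 with none were left out. The genotype fit used limma 3.58.1 under R 4.3.3, lmFit then eBayes, two-sided and without covariates. It had 4 residual and 4.35 prior degrees of freedom, and p-values had Benjamini-Hochberg adjustment at 0.05 over all tested clusters. The fit was tested on simulated data. Single values had an exact two-sided permutation test over mice.

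The labels call the arrays biological replicates, so the spread includes that between animals. The replicate numbers of the 2 groups do not pair mice by any label. Members and gene lists were chosen with earlier results of these data known. Named genes were Mthfd1, the members, the folate partners, up to 4 genes with the smallest p in each pathway list, and the nearest profile to each member among genes that are not predicted, Rik, LOC or pseudogene names. Alternatives varied normalization, the clusters tested, the fit, covariates (tissue means and the identifier letter) and the mice included.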

Additional observations from a re-analysis of the deposited data

How the results depend on the processing

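In all 16 alternative fits 0 of the 9 enzymes and 0 clusters had an adjusted p under 0.05; the lowest adjusted p of an enzyme was 0.325, for Rrm2 with the replicate number as a block. At an unadjusted p under 0.05, 1363 clusters became 2600 over all clusters of the table and 2331 with the replicate block, and the 0 of 9 enzymes became 1 with the replicate block (Rrm2, -0.40), 2 with the smooth muscle covariate and 0 to 1 when each mouse was left out in turn (Rrm1 without the second Mthfd1S+/- mouse). Intervals within 1.5-fold, 9 in the report, were 2 with the colonic epithelium mean as covariate, 6 with the smooth muscle covariate or unmoderated least squares, and 6 to 9 with each mouse left out. With 1 Mthfd1S+/- mouse left, that mouse is assumed to vary like the WT mice. No label pairs the mice by number. Deviations of same-numbered mice from their group means correlated at 0.117 and -0.044. Deviations of the 2 Mthfd1S+/- mice mirror each other, so these correlations cannot decide whether mice are paired. The block leaves 1 residual degree of freedom.

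Small differences turned sign. With the smooth muscle covariate the log2 differences were 0.21 for Tyms, 0.35 for Tk1, 0.019 for Dtymk, 0.27 for Rrm2, -0.019 for Rrm2b, 0.036 for Samhd1, 0.018 for Shmt1, -0.029 for Slc29a1 and 0.074 for Txnrd1. With the epithelium covariate they were 0.16 for Tk1, 0.11 for Mthfd1l, 0.14 for Shmt1, 0.033 for Nt5e, 0.013 for Txnrd1 and -0.00099 for Phlda3. Quantile normalization gave Tk1 0.0013 and median centring 0.015. The identifier letter as a covariate gave Dut -0.037, and the replicate block Shmt2 -0.0019. Leaving out each mouse gave -0.26 to 0.19 for Tyms, -0.23 to 0.21 for Tk1, -0.15 to 0.17 for Dut, -0.029 to 0.41 for Rrm1, -0.18 to 0.072 for Rrm2, -0.68 to 0.042 for Mthfd1l, -0.32 to 0.12 for Shmt1, -0.047 to 0.22 for Shmt2, -0.21 to 0.032 for Txnrd1, -0.0073 to 0.28 for Cdt1, -0.00056 to 0.23 for Rfc3 and -0.34 to 0.058 for Gins2. Apart from Rrm2, the extremes are the fits without 1 or the other Mthfd1S+/- mouse. Dctd kept its sign in every alternative run. Its r with the S phase mean was 0.098 with median-centred arrays. The cause of these changes was not tested.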

Other observations

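Of the 9 enzymes, 2 have a second single-symbol cluster, and both are dim. The second Rrm2 cluster read 2.53, 2.85, 2.94 and 2.93 in WT, against 2.77 and 2.66 in Mthfd1S+/-. WT mouse 1 was thus the lowest there and the highest on the main Rrm2 cluster. The second Dut cluster read 2.93, 3.18, 3.05 and 3.04 in WT and 2.96 and 3.25 in Mthfd1S+/-, again in another order of mice than its main cluster. A cluster shared by Tyms and its pseudogene read 4.11, 4.28, 4.31 and 4.55 in WT and 4.44 and 4.34 in Mthfd1S+/-. No gene is named from it.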
